A study of Mus musculus with 13 samples.

Results

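Neuropeptides of the hypothalamus that act on feeding, growth, water balance and arousal were followed in RNA of whole mouse brain across 4 genotypes of Adar, the gene of an enzyme that edits RNA by turning adenosines within double-stranded stretches into inosines. The genes were chosen by name, with earlier results of these data known. They were Agrp, Npy, Pomc, Cartpt, Ghrh, Trh, Crh, Oxt, Avp and Hcrt, 10 of the 54307 entries in the table of estimated counts. All 10 had a row, and 8 passed the filter on low counts that left 19962 genes for testing; Agrp and Ghrh did not. The mice were C57BL/6, and the genotypes were P195A/- (n = 3), P195A/P195A (n = 4), P195A/+ (n = 3) and wild type (n = 3), where P195A is a point-mutant allele of Adar. A second, longer genotype label of the P195A/- mice names P195A for each allele together with AdarKO/+; the short label was followed. Each mouse gave 1 library. Age at collection was 42 days in the P195A/- mice, 42 or 48 days in the P195A/P195A mice, 43 days in the P195A/+ mice and 48 or 74 days in the wild-type mice. Each genotype had 1 male.

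Agouti-related peptide (Agrp) and neuropeptide Y (Npy) are made by arcuate neurons that promote feeding, and products of Pomc and Cartpt are made by arcuate neurons that restrain it. Ghrh drives growth hormone release from the pituitary, Trh drives thyrotropin release and Crh drives corticotropin release. Oxt and Avp encode oxytocin and vasopressin, each together with a carrier protein called neurophysin, and Hcrt encodes the orexins, which promote wakefulness and feeding. Most of these neurons form small nuclei, so that in RNA of the whole brain their transcripts are diluted by all other cells, and fewer peptide neurons cannot be told apart from less peptide RNA per neuron. RNA of the whole brain also does not tell which region a transcript came from. The values below are therefore not those of the hypothalamus alone. The labels give a body weight at weaning for each mouse, taken at 20 days in P195A/- mice, 19 or 20 days in P195A/P195A mice, 21 days in P195A/+ mice and 19 or 24 days in wild-type mice. It was 6.4 to 8.4 g in the 7 mice without a wild-type Adar allele and 9.0 to 10.7 g in the 6 mice with at least 1, with no overlap. The comparisons below ask whether the peptide genes differed with genotype or followed that weight.

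Oxt and Avp share sequence that bears on how their reads could be assigned, since both genes encode a neurophysin. They are neighbours on chromosome 2 (GRCm38, GENCODE M21), Oxt at chr2:130576173-130577054 on the plus strand and Avp at chr2:130580620-130582554 on the minus strand, with 3565 bases between them. Their longest identical stretch is 127 bases, at positions 156 to 282 of the 537-base Oxt transcript and 144 to 270 of the 577-base Avp transcript, inside the coding sequence of both, shown here in capitals throughout because every base is shared.
Oxt and Avp, shared coding stretch: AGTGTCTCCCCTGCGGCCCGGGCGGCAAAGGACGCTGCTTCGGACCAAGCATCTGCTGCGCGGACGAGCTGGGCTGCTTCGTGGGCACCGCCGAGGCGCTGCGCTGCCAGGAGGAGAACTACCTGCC
Of the 31-base words of the Oxt transcript, 19.1% also occur in Avp, and of those of Avp, 17.7% occur in Oxt. Reads that lie wholly inside this stretch can be assigned to either gene, so the split of the estimated counts between Oxt and Avp is uncertain to that extent.

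The start region of Pomc is shown because Pomc varied most between libraries. It is the RefSeq window from 250 bases before to 50 bases after the start site, chr12:3954695-3954994 on the plus strand (GRCm38.p6), with the letters TATAAA in capitals.
Pomc start region: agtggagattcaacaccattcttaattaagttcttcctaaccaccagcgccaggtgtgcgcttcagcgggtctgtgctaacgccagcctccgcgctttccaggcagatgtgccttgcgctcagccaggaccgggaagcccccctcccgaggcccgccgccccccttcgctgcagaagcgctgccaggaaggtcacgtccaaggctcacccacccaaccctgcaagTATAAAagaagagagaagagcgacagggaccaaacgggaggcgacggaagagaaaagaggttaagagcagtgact
The letters TATAAA end 19 bases before the start site. They occur on either strand in 13.6% of 32851 promoter windows of the same length. RefSeq windows were at hand for 8 of the 10 genes; Agrp and Crh were not among them.

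Library totals were 13539148 to 22399005 estimated counts, and 1 count was worth 0.0452 to 0.073 CPM, the reads of a gene relative to the library total after scaling by the trimmed mean of M values. The biological coefficient of variation over all tested genes was 19.1%. The library with the lowest total was P195A/P195A replicate 2. RNA of pituitary hormones was present at widely different levels: growth hormone (Gh) was 48.7 to 769 CPM in 5 libraries and 0.187 to 11.9 CPM in the other 8. The 5 were P195A/- replicate 2, P195A/P195A replicates 2 and 4, P195A/+ replicate 3 and wild-type replicate 2, so that every genotype held at least 1. Markers of the olfactory bulb also differed with genotype: 4 of 12 (Cdhr1, Doc2g, Sp8 and Shisa3) passed the test of any difference among genotypes in edgeR's quasi-likelihood test, where 0.115% of all tested genes did. Cdhr1 averaged 5.91 ± 3.64 CPM in P195A/-, 22.3 ± 2.39 CPM in P195A/P195A, 5.1 ± 1.12 CPM in P195A/+ and 14 ± 1.68 CPM in wild-type brains. The median deviation of the 12 markers from their own means was -0.46 to -0.03 on the log2 scale in P195A/- libraries, 0.30 to 0.70 in P195A/P195A, -0.64 to -0.02 in P195A/+ and 0 to 0.14 in wild-type libraries. The summed level, mostly Reln, was 346 to 545 CPM over P195A/- brains, 470 to 525 CPM over P195A/P195A brains, 396 to 545 CPM over P195A/+ brains and 474 to 517 CPM over wild-type brains. The part of dissection in the values below was not tested. Markers of cerebellum, choroid plexus, and cortex and striatum, and the list of pituitary genes, held no gene that passed in any comparison. P195A/- replicate 2 stood apart in its cerebellum markers, with a summed level of 676 CPM against 1300 to 1870 CPM in the other 12 libraries.

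The peptide genes were scarce in whole brain. Per kilobase of the longest coding transcript, the 8 tested genes averaged 1.38 CPM per kb (Oxt) to 9.74 CPM per kb (Pomc), against a median of 4.5 CPM per kb over 19899 tested genes with a known length. The average of Pomc rests on the 5 libraries of high Gh, and its median over libraries was 1.6 CPM per kb. The other 7 averages were below the median of all genes: Hcrt had 3.76, Npy 3.3, Avp 3.21, Cartpt 2.99, Trh 1.86 and Crh 1.51 CPM per kb. Agrp had 0.297 and Ghrh 0.0482 CPM per kb. Genes for the enzymes that cut and trim peptide precursors were far more abundant, with Cpe at 1590 CPM, Pcsk2 at 282 CPM and Pcsk1 at 80.7 CPM on average over the 13 libraries, not divided by length.

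None of the 8 tested peptide genes passed in any comparison of genotypes. In edgeR's quasi-likelihood test over all genes, 0 of 8 had a Benjamini-Hochberg adjusted p under 0.05 in P195A/- against wild type, where 0.0351% of all tested genes did. The count was likewise 0 of 8 in P195A/P195A against wild type (0.0501% of all genes), in P195A/+ against wild type (0.01%) and in P195A/- against P195A/P195A (0.0401%). It was 0 of 8 for mice without a wild-type allele against mice with at least 1 (0.015% of all genes) and for any difference among the genotypes (0.115%). In each of these 6 comparisons 0 of 8 also had an unadjusted p under 0.05, a share that lay between 4.48% and 12.3% over all genes, and DESeq2 and limma-voom called 0 of 8 as well. With so few genes called at all, a count of 0 among 8 is near the background and is no result about these genes. What the data limit is the size of a difference. Between mice without and with a wild-type allele, the 95% intervals of the 7 genes other than Pomc lay between 0.515-fold and 1.69-fold, and all 8 intervals held no change. On simulated counts of the same libraries, 77% of genes changed by 1 on the log2 scale and 100% of those changed by 2 were recovered in this comparison, with 11 false calls. These shares are over genes of all levels, whereas the 8 peptide genes had biological coefficients of variation of 23.3% to 136%, so they do not state what could be detected for these genes. The median log2 fold change of the 8 genes was -0.16, against 0.015 over all genes.

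**Figure D1:**
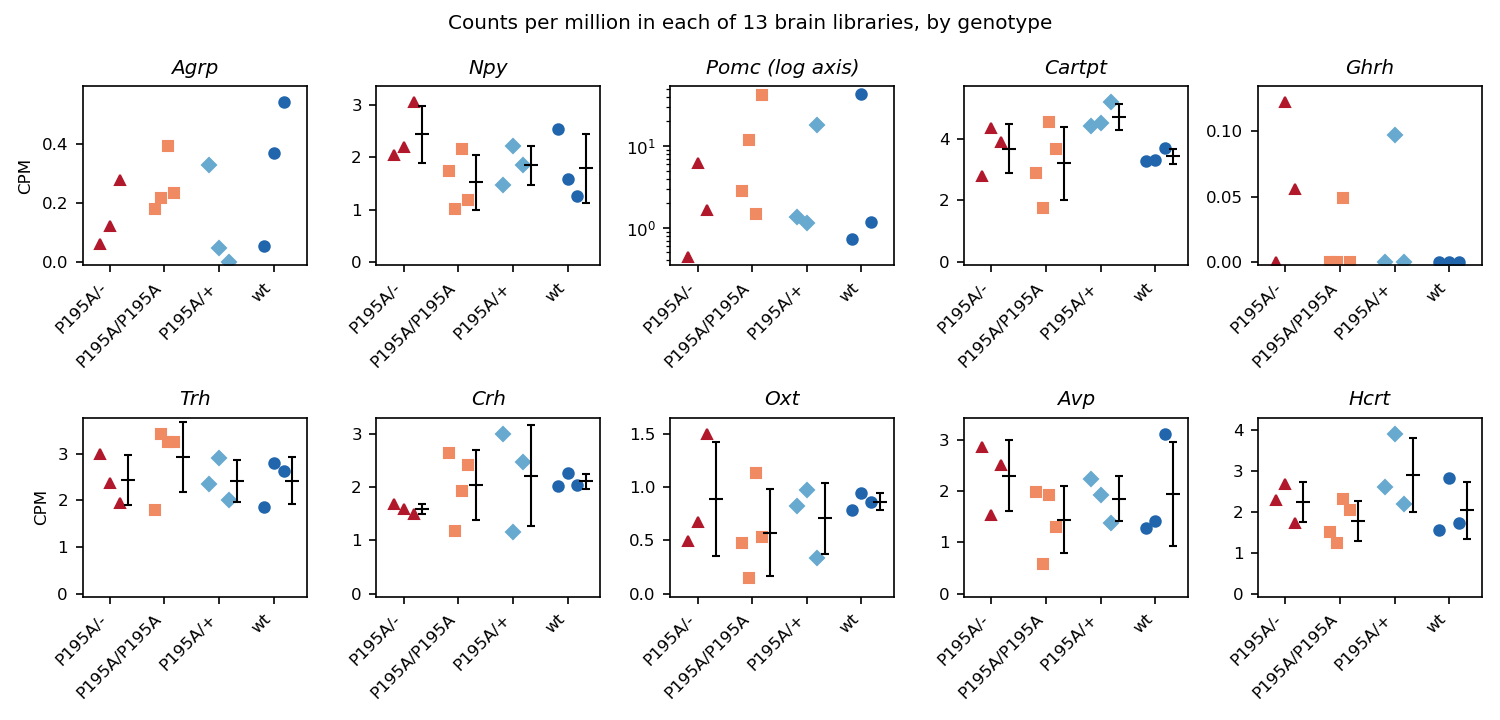
Level of each of the 10 peptide genes in CPM (vertical axes start at or just under 0, except the log axis of Pomc), by genotype, 1 point per library, with mean and SD beside the points for the 7 genes of steadier level. Most genotypes overlap. Cartpt in P195A/+ (4.42 to 5.18 CPM) lies above wild type (3.26 to 3.70 CPM) and P195A/- (2.80 to 4.33 CPM). Crh in P195A/- (1.5 to 1.68 CPM) lies below wild type (2.02 to 2.26 CPM). Neither difference from wild type passed. The share of all genes that separate in this way is not given, so these are no results about the 2 genes.

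**Figure D2:**
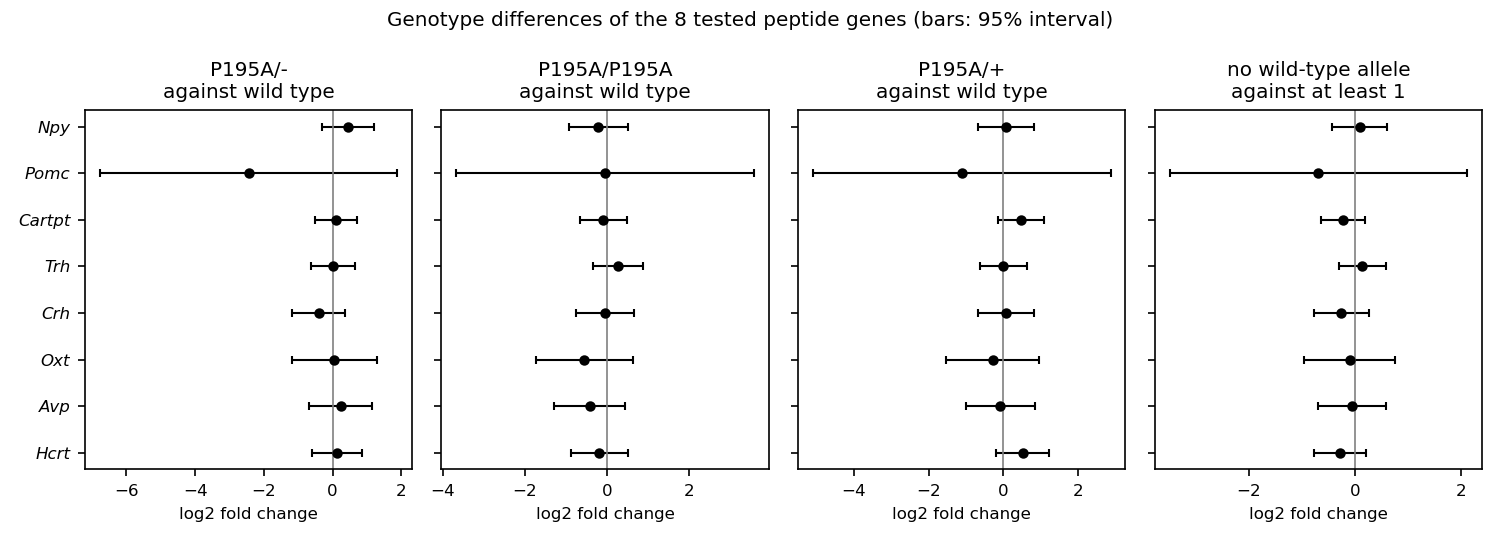
Log2 fold change (horizontal axes, each with its own range) of the 8 tested peptide genes in 4 comparisons, points with 95% intervals. Every interval holds 0, and those of Pomc are the widest, from -6.77 to 1.88 in P195A/- against wild type.

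Among the peptides that promote feeding, Npy was 2.05, 2.20 and 3.05 CPM in P195A/- brains, 1.74, 1.02, 2.16 and 1.18 CPM in P195A/P195A brains, 1.47, 2.22 and 1.85 CPM in P195A/+ brains and 2.53, 1.58 and 1.26 CPM in wild-type brains. The P195A/- values lay within or above the wild-type range, and the highest and lowest libraries were P195A/- replicate 3 and P195A/P195A replicate 2. The log2 fold change of Npy was 0.45 (95% interval -0.30 to 1.20, adjusted p = 0.67 in edgeR) in P195A/- against wild type. It was 0.66 (-0.04 to 1.37, adjusted p = 0.757 in edgeR) in P195A/- against P195A/P195A, the comparison with the lowest unadjusted p of the 4 pairs of genotypes, 0.0643.

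Agrp, which is made by the same arcuate neurons as Npy, was near the limit of detection. It was 0.0622, 0.122 and 0.278 CPM in P195A/- brains, 0.180, 0.219, 0.393 and 0.236 CPM in P195A/P195A brains, 0.328, 0.0484 and 0 CPM in P195A/+ brains and 0.0562, 0.368 and 0.542 CPM in wild-type brains. These were 0 to 11.99 estimated counts per library, and 3 counts were worth 0.136 to 0.219 CPM, so a difference was not detectable at this depth. The Agrp gene runs over 70.7 kb in GENCODE M21 (chr8:105566698-105637393, minus strand) and overlaps 7 other genes, among them Ripor1 and Ctcf. On that strand its short transcript Agrp-201 starts at 105568298 and runs to 105566698.

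Hcrt was 2.30, 2.69 and 1.72 CPM in P195A/- brains, 1.5, 1.24, 2.31 and 2.06 CPM in P195A/P195A brains, 2.62, 3.92 and 2.19 CPM in P195A/+ brains and 1.57, 2.84 and 1.72 CPM in wild-type brains. The highest library was P195A/+ replicate 2, and all genotypes overlapped, P195A/P195A and P195A/+ only narrowly. The log2 fold change was 0.13 (95% interval -0.60 to 0.86, adjusted p = 0.922 in edgeR) in P195A/- against wild type and -0.28 (-0.78 to 0.21, adjusted p = 0.627 in edgeR) for mice without against mice with a wild-type allele.

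Among the peptides that restrain feeding, Cartpt was 2.80, 4.33 and 3.89 CPM in P195A/- brains, 2.87, 1.75, 4.52 and 3.66 CPM in P195A/P195A brains, 4.42, 4.50 and 5.18 CPM in P195A/+ brains and 3.26, 3.31 and 3.70 CPM in wild-type brains. All P195A/+ values were above all wild-type and all P195A/- values. Against wild type the log2 fold change was 0.46 (95% interval -0.15 to 1.07), with an adjusted p of 0.999 in edgeR's test. With 3 mice a group such a separation can arise by chance, and the share of all genes that show it is not given. In P195A/- and P195A/P195A brains Cartpt spread on both sides of the wild-type range, with log2 fold changes of 0.10 (-0.52 to 0.72) and -0.09 (-0.67 to 0.49) against wild type.

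Pomc, the precursor of melanocortins in arcuate neurons and of corticotropin in the pituitary, spread far more than any other peptide gene. It was 0.436, 6.16 and 1.67 CPM in P195A/- brains, 2.81, 11.7, 1.47 and 42.2 CPM in P195A/P195A brains, 1.36, 1.16 and 18.1 CPM in P195A/+ brains and 0.730, 43.1 and 1.17 CPM in wild-type brains. Each genotype held both low and high libraries, from 6.999 to 819.7 estimated counts. Its biological coefficient of variation was 136%, against 20.1% for the trend at its level. The log2 fold change was -2.44 (95% interval -6.77 to 1.88, adjusted p = 0.682 in edgeR) in P195A/- against wild type, and 0.14 without the 5 libraries of high Gh. It was -0.69 (-3.50 to 2.12) for mice without against mice with a wild-type allele, and 0.45 without those 5 libraries.

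The level of Pomc moved with pituitary hormone RNA. Among the 5 libraries with Gh of 40 CPM or more Pomc was 6.16 to 43.1 CPM, and in the other 8 it was 0.436 to 2.81 CPM. Prolactin (Prl) was 13.5 to 505 CPM in those 5 libraries and 0 to 11.7 CPM in the other 8, the shared hormone subunit Cga 0.438 to 4.71 and 0 to 0.147 CPM, and thyrotropin beta (Tshb) 0.730 to 9.32 and 0 to 0.685 CPM. Tbx19, a transcription factor of the pituitary cells that make Pomc, was 0.244 to 0.421 CPM in those 5 and 0 to 0.147 CPM in the other 8. The summed level of the 14 pituitary genes was 63.2 to 192 CPM in P195A/-, 80.4 to 572 CPM in P195A/P195A, 63.7 to 1010 CPM in P195A/+ and 57.1 to 871 CPM in wild-type brains. Among the 14, Chgb was at 44.8 to 127 CPM whatever the level of Gh; without it the sums were 3.18 to 130 CPM for P195A/-, 11.4 to 495 CPM for P195A/P195A, 4.01 to 940 CPM for P195A/+ and 4.16 to 801 CPM for wild-type brains. Of the list, Lhb was at 0 in 9 libraries. The 13 libraries were cut at 40 CPM of Gh, between 11.9 and 48.7 CPM. Gh ranged from 0.187 to 11.9 CPM within the 8 low ones, so the cut does not show separate clusters. The relation was computed within these 8, over 4 genotypes, which the permutation did not hold apart. The pituitary genes and this split were chosen after the values were seen. The p-values below therefore describe the relation and do not test it, and adjustment over 2 relations does not cover that choice. There Pearson's r between log2 Pomc and log2 Gh was 0.90 (exact permutation p = 0.000422, adjusted over 2 relations 0.000844) and Spearman's rho was 0.95 (exact permutation p = 0.00114, adjusted 0.00228). Without the 2 libraries farthest from the median, r was 0.79. With Prl, r was 0.88 (exact permutation p = 0.00732, adjusted 0.00732), rho was 0.88 (exact permutation p = 0.00724, adjusted 0.00724), and r was 0.54 without the 2 farthest. The gene most like Pomc over all 13 libraries after centring on genotype means, among 17333 genes of at least 1 CPM, was Gh itself (r = 0.95), followed by Car5b (r = 0.94). High values are found for any gene in such a search.

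**Figure D3:**
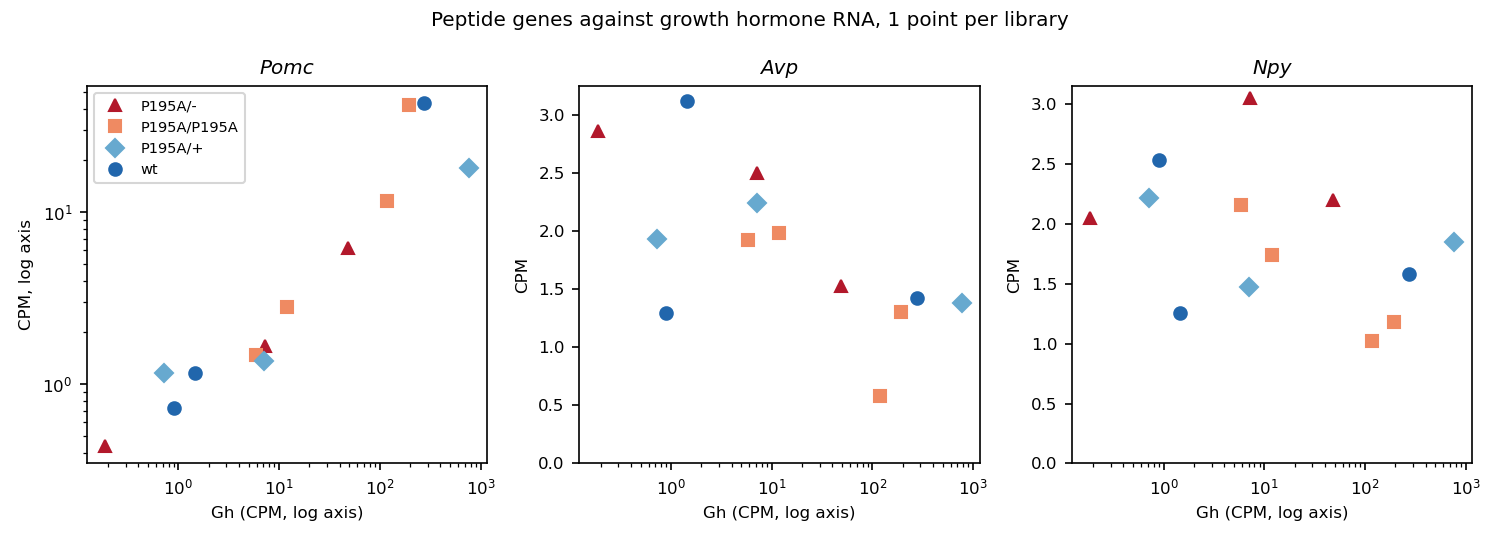
Level of Pomc, Avp and Npy (vertical axes, CPM, log axis for Pomc) against Gh (horizontal log axes, CPM), 1 point per library, with symbols for genotype. Pomc is higher with more Gh among the 8 libraries of low Gh and higher again in the 5 above 40 CPM, although the library with the most Gh (769 CPM) has 18.1 CPM of Pomc and not the highest level, 43.1 CPM; Avp is 0.584 to 1.53 CPM in those 5 and 1.29 to 3.12 CPM in the 8.

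Among the peptides that act on pituitary hormone release, Ghrh, the releasing hormone for growth hormone, was hardly measurable. It had no count in 9 of 13 libraries and at most 1.996 estimated counts in any. In all, P195A/- libraries held 2.897, P195A/P195A libraries 1.052, P195A/+ libraries 1.996 and wild-type libraries 0 estimated counts, and 3 counts, the limit that a count of 0 allows, were worth 0.136 to 0.169 CPM in the wild-type libraries. No difference was detectable at this depth.

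Trh was 2.99, 2.38 and 1.94 CPM in P195A/- brains, 1.80, 3.43, 3.24 and 3.24 CPM in P195A/P195A brains, 2.35, 2.90 and 2.00 CPM in P195A/+ brains and 1.85, 2.79 and 2.62 CPM in wild-type brains. It had the narrowest spread of the 8 tested genes, 1.91-fold between the highest and the lowest library, and all genotypes overlapped. The log2 fold change was 0.00 (95% interval -0.64 to 0.65, adjusted p = 0.998 in edgeR) in P195A/- and 0.27 (-0.33 to 0.87) in P195A/P195A, both against wild type.

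Crh was 1.68, 1.59 and 1.5 CPM in P195A/- brains, 2.63, 1.17, 1.92 and 2.42 CPM in P195A/P195A brains, 3.00, 1.16 and 2.47 CPM in P195A/+ brains and 2.02, 2.26 and 2.03 CPM in wild-type brains. The 3 P195A/- values lay below the 3 wild-type values, which can arise by chance with 3 mice a group, and inside the range of the other genotypes. In the fit its log2 fold change was -0.41 (95% interval -1.18 to 0.36, adjusted p = 0.719 in edgeR) in P195A/- against wild type and -0.26 (-0.78 to 0.26, adjusted p = 0.678 in edgeR) for mice without against mice with a wild-type allele.

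Oxt was 0.498, 0.671 and 1.5 CPM in P195A/- brains, 0.479, 0.146, 1.13 and 0.531 CPM in P195A/P195A brains, 0.819, 0.967 and 0.333 CPM in P195A/+ brains and 0.786, 0.946 and 0.858 CPM in wild-type brains. It ranged over 10.3-fold, and the wild-type values lay close together inside the range of each other genotype. Its log2 fold change against wild type was 0.05 (95% interval -1.18 to 1.28) for P195A/- and -0.55 (-1.72 to 0.63) for P195A/P195A. Its lowest value rests on 2.187 estimated counts in P195A/P195A replicate 2.

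Avp was 2.86, 1.53 and 2.50 CPM in P195A/- brains, 1.98, 0.584, 1.92 and 1.30 CPM in P195A/P195A brains, 2.24, 1.93 and 1.38 CPM in P195A/+ brains and 1.29, 1.42 and 3.12 CPM in wild-type brains. The genotypes overlapped, and the highest library was wild-type replicate 3, the only mouse of 74 days. The other wild-type values, 1.29 and 1.42 CPM, lay below every P195A/- value. Without that library the log2 fold change against wild type was 0.44 in P195A/+ and 0.10 in P195A/P195A, against -0.08 and -0.42 with all libraries. On the log2 scale the fold change was 0.23 (95% interval -0.69 to 1.15) in P195A/- and -0.42 (-1.29 to 0.45) in P195A/P195A, both against wild type. With the shared stretch shown above, levels of Oxt and Avp cannot be fully separated.

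A single library carried many of the extremes. In P195A/P195A replicate 2, which had the lowest total count, 5 of the 8 tested genes were at their lowest (Npy, Cartpt, Oxt, Avp and Hcrt), while Trh was at its highest. The median deviation of the 7 genes other than Pomc from their own means was -0.75 on the log2 scale there, and between -0.31 and 0.29 in each of the other 12 libraries. Over genes of similar low level the median deviation of this library was 0.28 for 545 genes with transcripts of 700 bases or less and 0.14 for 1279 genes of over 700 and up to 1400 bases. Why 5 peptide genes were at their lowest in it was not tested. The same library was also the lowest of the 13 in the summed level of the 24 other hypothalamic peptide genes, 251 CPM against 274 to 398 CPM elsewhere, and of the cortex and striatum markers, 542 CPM against 591 to 711 CPM. Across libraries, 0 of the 28 pairs of tested genes were correlated at an adjusted p under 0.05 by exact permutation within genotypes; the lowest unadjusted p was that of Npy and Oxt (r = 0.58, exact permutation p = 0.0646, adjusted 0.642; rho = 0.48, exact permutation p = 0.146, adjusted 0.885; r = 0.55 without the 2 farthest libraries).

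The peptide genes did not follow weaning weight past the threshold. With the 2 classes of mice in the model, 0 of 8 genes had a slope that passed in edgeR's quasi-likelihood test (0.00501% of all tested genes passed), with 0 of 8 at an unadjusted p under 0.05 and 0 of 8 by DESeq2 and by limma-voom. For the 7 genes other than Pomc the 95% intervals of the slope lay between 0.65-fold and 1.44-fold per gram. Crh had a slope of -0.28 on the log2 scale per gram (95% interval -0.62 to 0.05, unadjusted p = 0.0952, adjusted p = 1.0 in edgeR). Pomc had a slope of 1.93 per gram (-0.23 to 4.10, unadjusted p = 0.075, adjusted p = 1.0 in edgeR), which was -0.31 without the 5 libraries of high Gh. All 8 tested genes of the pituitary list had slopes above 0, with a median of 1.63 per gram, and 3 had an unadjusted p under 0.05, a level reached by 2.52% of all genes. The adjusted p was 1.0 for each of the 8 in edgeR. Several of these genes, Gh, Prl, Cga and Tshb among them, were high in the same 5 libraries. They are not separate observations, so their count cannot be set against that share. Those 5 mice weighed 8.0, 8.2 and 8.4 g without a wild-type allele and 10.5 and 10.7 g with at least 1.

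Within the 7 mice without a wild-type allele, Crh was lower in heavier mice, with r = -0.76 (exact permutation p = 0.0433) and rho = -0.88 (exact permutation p = 0.0151), but the p of r adjusted over all genes was 1.0. These mice are of 2 genotypes, which the permutation did not hold apart. The P195A/- mice weighed 7.9 to 8.4 g and had 1.5 to 1.68 CPM of Crh. The P195A/P195A mice weighed 6.4 to 8.4 g and had 1.17 to 2.63 CPM. Weight and genotype therefore cannot be fully told apart in this correlation. Without the 2 mice farthest from the median weight r was -0.72, and leaving out each mouse in turn r lay between -0.94 and -0.58. In those mice 3.25% of all genes had an exact permutation p under 0.05 and 0 of 19962 passed after adjustment. The smallest p the permutation allows was 0.000397 in those 7 mice and 0.00556 in the 6 mice with at least 1 wild-type allele. Adjusted over 19962 genes, a gene could pass only if many others also reached that smallest p. The adjusted p therefore cannot decide whether a gene followed weight within a class. Within the 6 mice with at least 1 wild-type allele, r of Crh was -0.30 (exact permutation p = 0.583) and rho was 0.15 (exact permutation p = 0.778), and r was 0.71 without the 2 farthest mice. The other 7 genes had r between -0.31 and 0.37 in the 7 mice and between -0.30 and 0.64 in the 6 mice, each with an exact permutation p of 0.10 or more. These are 16 relations, all with an adjusted p of 1.0 over all genes, which so few mice make uninformative.

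**Figure D4:**
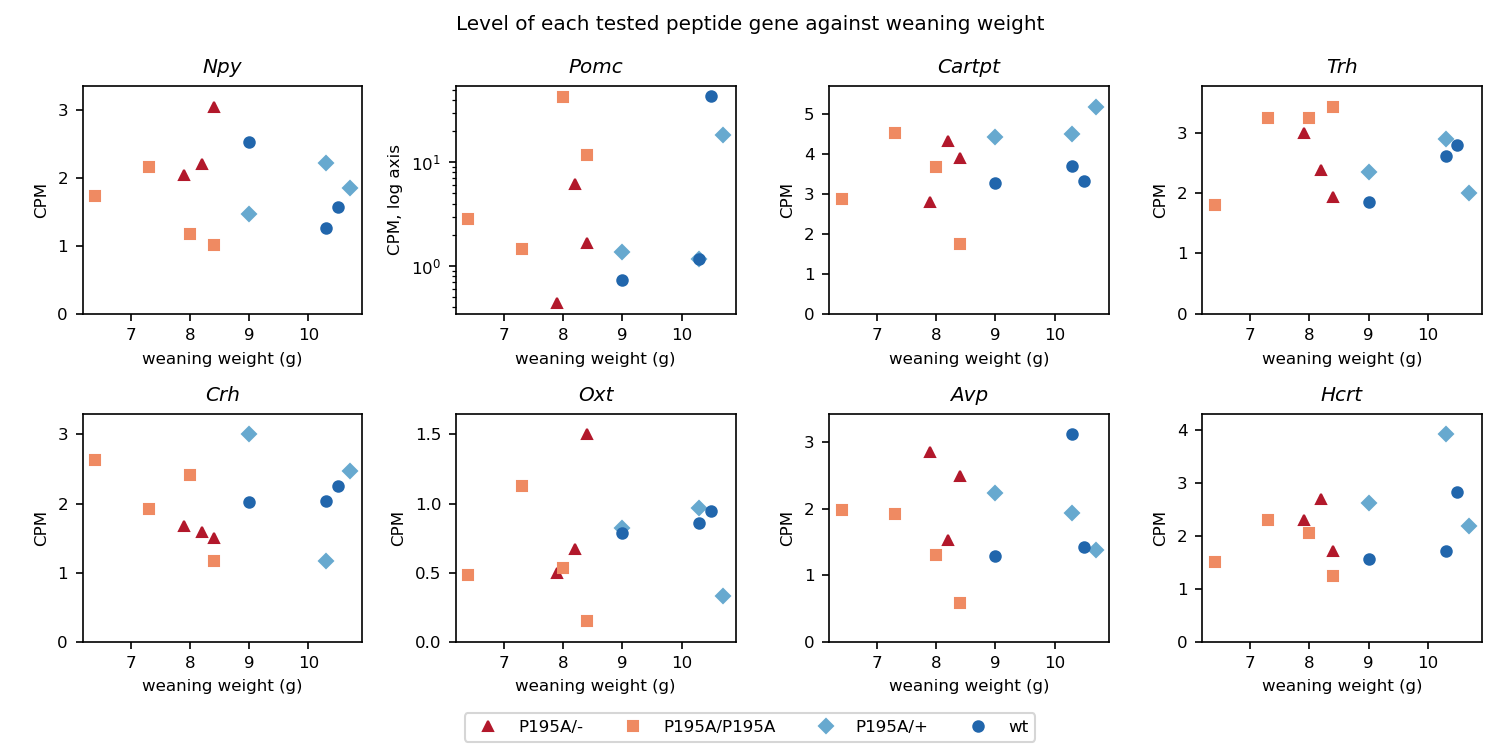
Level of each of the 8 tested peptide genes (vertical axes, CPM, log axis for Pomc) against weaning weight in g (horizontal axes), 1 point per mouse, with symbols for genotype. The 7 mice without a wild-type allele lie at 6.4 to 8.4 g and the other 6 at 9.0 to 10.7 g, and among the 7 the lightest mouse has 2.63 CPM of Crh and 1 of the 2 heaviest has 1.17 CPM.

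Between the 4 males and the 9 females 0 of 8 genes passed in edgeR's test (0.0451% of all tested genes passed), with 1 of 8 at an unadjusted p under 0.05 (2.65% of all genes) and 0 of 8 by DESeq2 and by limma-voom. That gene was Hcrt, with a log2 fold change of -0.53 in males against females (95% interval -1.03 to -0.03, unadjusted p = 0.039, adjusted p = 1.0 in edgeR).

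Genes around the peptides likewise held none that passed. Of the 21 receptors of these peptides and of body weight signals, 19 were tested and 0 passed in any comparison. The receptor of ghrelin, Ghsr, averaged 0.997 ± 0.258 CPM in P195A/- (n = 3), 0.932 ± 0.0876 CPM in P195A/P195A (n = 4), 1.64 ± 0.568 CPM in P195A/+ (n = 3) and 1.54 ± 0.241 CPM in wild-type brains (SD, n = 3). Its log2 fold change was -0.72 for mice without against mice with a wild-type allele, with an unadjusted p of 0.00848 and an adjusted p of 0.265 in edgeR. The melanocortin receptor Mc4r averaged 1.89 ± 0.349 CPM in P195A/- brains and 2.37 ± 0.646 CPM in wild-type brains. All 12 genes of the list of peptide processing were tested and 0 passed. Not all of them are enzymes: the list also holds Chga, Chgb, Scg2, Scg3, Scg5 and Pcsk1n. In edgeR's test 5 of 12 had an unadjusted p under 0.05 in P195A/- against P195A/P195A (6.82% of all genes). Of these, 2 were higher (Chga and Pcsk1n) and 3 lower (Pcsk1, Cpe and Prepl). In P195A/- against wild type 4 of 12 did (10.6% of all genes), 1 higher (Chga) and 3 lower (Pcsk1, Cpe and Prepl). In P195A/P195A against wild type 0 of 12 had an unadjusted p under 0.05 (5.89%). For mice without against mice with a wild-type allele 3 of 12 did (12.3%), 1 higher (Chga) and 2 lower (Cpe and Prepl). The carboxypeptidase Cpe, which trims peptide precursors, averaged 1260 ± 176 CPM in P195A/-, 1560 ± 239 CPM in P195A/P195A, 1880 ± 87.3 CPM in P195A/+ and 1660 ± 146 CPM in wild-type brains. For mice without against mice with a wild-type allele its log2 fold change was -0.33 (adjusted p = 0.188 in edgeR). Against wild type it was -0.40 in P195A/- (adjusted p = 0.272 in edgeR) and -0.08 in P195A/P195A (adjusted p = 0.924 in edgeR). Prepl had the lowest adjusted p of that list in this comparison, with a log2 fold change of -0.27 and an adjusted p of 0.167 in edgeR.

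Of 24 other hypothalamic peptide genes 15 were tested and 0 passed. The peptide precursor Nucb2 averaged 5.10 ± 0.928 CPM in P195A/- and 3.20 ± 0.362 CPM in wild-type brains, and somatostatin (Sst), which inhibits growth hormone release, averaged 14.2 ± 5.84 CPM in P195A/- and 9.29 ± 1.78 CPM in wild-type brains (SD, n = 3 each). The adjusted p in edgeR's test was 0.419 for Nucb2 and 0.394 for Sst. The Sst values were 10.8 to 21 CPM in P195A/- brains, highest in replicate 3, and 7.27 to 10.6 CPM in wild-type brains, so the P195A/- mean is raised by that library. Sst averaged 9.87 CPM in P195A/P195A and 10.3 CPM in P195A/+ brains. Cholecystokinin (Cck), a peptide of gut and brain, had the smallest unadjusted p of the list, 0.00308 in P195A/- against P195A/P195A, with 36.3 ± 5.55 CPM in P195A/- (SD, n = 3) and 25.2 ± 5.27 CPM in P195A/P195A brains (SD, n = 4), a log2 fold change of 0.52 and an adjusted p of 0.48 in edgeR. Of 15 transcription factors of hypothalamic regions 7 were tested and 0 passed, and their summed level was 16.8 to 22.1 CPM in P195A/-, 15.5 to 19.5 CPM in P195A/P195A, 18.4 to 23.7 CPM in P195A/+ and 15.3 to 21.8 CPM in wild-type brains. All 16 genes of the growth and thyroid hormone axis were tested and 0 passed. Igf1, the growth factor induced by growth hormone, averaged 15.7 ± 1.17 CPM in P195A/-, 20.5 ± 1.17 CPM in P195A/P195A, 16.3 ± 0.323 CPM in P195A/+ and 19.1 ± 0.758 CPM in wild-type brains, with a log2 fold change of -0.39 and an adjusted p of 0.486 in edgeR in P195A/- against P195A/P195A.

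The genes most like each peptide gene over the 13 libraries, after centring on genotype means, were Slirp (r = 0.96) and Hist1h1b (r = 0.94) for Npy, and Plpp3 (r = 0.96) and Kif5a (r = 0.95) for Cartpt. For Trh they were Uap1l1 (r = 0.97) and Scara5 (r = 0.92), and for Crh Gm7488 (r = 0.96) and 9530077C05Rik (r = 0.94). For Oxt they were Arhgap32 (r = 0.93) and Tfe3 (r = 0.93), for Avp Rars2 (r = 0.93) and Zfp213 (r = 0.93), and for Hcrt Hist1h3h (r = 0.90) and Pdgfra (r = 0.89). These were the highest of 17333 candidates over 13 libraries, a search in which high values are found for any gene.

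The deposited tables of A-to-I editing sites listed 15 positions inside the span of Agrp and 0 in the spans of the other 9 genes. All 15 lay 58615 to 66552 bases upstream of the start of Agrp-201, in the part of the span that overlaps other genes. None had 10 reads of A or G in every library, the minimum set for giving an editing level, so none is given.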

How the data were processed

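RNA of whole brain was sequenced in 13 mice of 4 Adar genotypes; the labels give their genotype, sex, age and weight at weaning. The authors deposited estimated counts (expected counts) per gene, from fastp 0.19.5 and Salmon per the submitters' processing notes; Salmon's version and annotation were not given in the sources used here. Gene IDs were matched to GENCODE M21 (51482 of 54307). The authors also deposited base counts at listed editing sites (JACUSA2 2.0.0-RC5, mm10, per the file headers), used only to look for sites in the peptide genes.

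The counts, after rounding, entered edgeR 4.0.16 (R 4.3.3; quasi-likelihood, robust, TMM, filterByExpr), all 13 libraries in 1 fit, with Benjamini-Hochberg adjustment over 19962 genes and a threshold of 0.05. Standard errors are the log2 fold change over the root of F, and 95% intervals use the t distribution with the fit's degrees of freedom. Weight slopes were fitted within 2 classes, mice without and with a wild-type allele, and correlations were tested by exact permutation within each class. DESeq2 1.42.0, limma 3.58.1 (voom), scaling, filter, sex, age, replicate and leave-one-out alternatives were run. Code was tested on simulated data. The labels do not say that replicates are from separate litters, so p-values measure the spread between these mice. Intervals and floors cover counting error only where they rest on counts. Same-numbered replicates were not paired by the labels, and no 2 libraries agreed within sampling noise (lowest chi-square per gene 7.16). The peptide genes and all gene lists were chosen with earlier results of these data known. Of the other lists, genes could be named that passed or, for each list and comparison, the 2 with the smallest unadjusted p, and not all of these are printed. Mc4r, Pcsk2, Reln and the pituitary genes were named after their values were seen.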

Additional observations from a re-analysis of the deposited data

Results flagged for a closer look

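Within the 4 P195A/P195A libraries, the only genotype with enough samples for a test of a lone value, 2 of the 10 peptide genes had a library far from the other 3; chance flags about 1 in 20 such groups. Trh was 1.80 CPM in P195A/P195A replicate 1, against 3.24 to 3.43 CPM in the other 3. Ghrh was 0.0491 CPM in P195A/P195A replicate 3, which is 1.052 estimated counts, and 0 in the other 3; with 3 values at 0 any count would have stood apart, so this is no sign of an unusual library.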

How the results depend on the processing

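No peptide gene passed in any comparison under any of the alternatives run, and 0 weight correlations passed after adjustment. So few mice limit the smallest permutation p, so the latter count decides nothing about the correlations. With a minimum of 5 reads in place of 10, 8 editing sites in the span of Agrp had enough reads, and with 20 reads 0 did. Of 536 log2 fold changes or slopes under settings other than leaving out 1 library, 67 had the opposite sign to the reported value, and of 728 with 1 library left out, 73 did; none of these values had passed, so no direction had been called. Agrp and Ghrh have no reported fold change to compare. The causes were not tested. Ghrh had at most 1.996 and Agrp at most 11.99 estimated counts in a library, which limits what could be seen of them.

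The values of opposite sign follow. Scaling by median ratios gave 0.00 for the weight slope of Oxt, and no filter, DESeq2 and sex as a covariate each gave 0.00 for Trh in P195A/- against wild type. By limma-voom, Crh was -0.05 in P195A/+, Pomc 0.92 in P195A/P195A, Trh -0.01 and Oxt -0.08 in P195A/-, each against wild type. It also gave Pomc 0.01 for mice without against mice with a wild-type allele, and Oxt -0.14 for weight. In females only, P195A/+ against wild type had Trh 0.18, Oxt 0.04, Npy -0.14, Avp 0.62 and Crh -0.05. P195A/P195A against wild type then had Cartpt 0.16, Avp 0.35 and Crh 0.11, and P195A/- against wild type had Oxt -0.56. P195A/- against P195A/P195A then had Cartpt -0.05 and Oxt -0.30, and mice without against mice with a wild-type allele had Pomc 0.43, Npy -0.04 and Avp 0.21. In mice 48 days old, P195A/P195A against wild type had Cartpt 0.32, Avp 0.25 and Crh 0.01. For weight, Npy was 0.02 with weaning age as a covariate, Cartpt -0.01 and Oxt -0.19 with genotype in place of the classes, and Trh -0.01 with weight alone.

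Same-numbered libraries of different genotypes had a mean correlation of 0.049 (-0.074 to 0.227 over 18 pairs), against -0.019 over 45 pairs of different numbers. Since neither the labels nor a correlation over 0.1 in every pair ties the numbers together, they were not taken as pairs, although 8 of 13 libraries matched best with their own number, a hint from the data and not the design. With the replicate number as a block, no peptide gene passed. Under the block Pomc was 0.33 and Crh -0.01 in P195A/+ and Oxt -0.03 in P195A/-, each against wild type. For weight the block gave Cartpt -0.17, Oxt -0.38, Npy 0.03, Avp 0.18 and Hcrt -0.01.

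Both settings on pituitary RNA were chosen after seeing the data. Without the 5 libraries of high Gh, P195A/+ against wild type had Trh 0.23, Pomc 0.39, Oxt 0.12 and Npy -0.02. P195A/P195A against wild type had Pomc 1.15, Cartpt 0.09, Npy 0.05, Hcrt 0.21 and Crh 0.16, P195A/- against wild type had Pomc 0.14 and Cartpt -0.06, and P195A/- against P195A/P195A had Cartpt -0.15. Mice without against mice with a wild-type allele had Pomc 0.45, Oxt 0.08 and Avp 0.08. Weight slopes were -0.31 for Pomc, 0.14 for Npy and 0.31 for Avp, and males against females had Cartpt 0.33, Oxt 0.83 and Avp 0.52. With Gh as a covariate, Avp was 0.04 in P195A/+ and Trh 0.00 in P195A/-, each against wild type. Pomc was 0.01 for mice without against mice with a wild-type allele, the weight slopes were 0.09 for Npy and 0.09 for Avp, and males against females had Pomc -0.68 and Avp 0.12.

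Leaving out each library in turn, the values that changed sign ranged as follows. In P195A/+ against wild type they were -0.17 to 0.12 for Trh, -3.56 to 2.83 for Pomc, -0.59 to 0.05 for Oxt, -0.14 to 0.38 for Npy, -0.31 to 0.44 for Avp and -0.21 to 0.38 for Crh. In P195A/P195A against wild type they were -1.52 to 3.90 for Pomc, -0.31 to 0.11 for Cartpt, -0.44 to 0.11 for Npy, -0.65 to 0.10 for Avp, -0.35 to 0.12 for Hcrt and -0.19 to 0.14 for Crh. In P195A/- against wild type they were -0.17 to 0.14 for Trh, -3.80 to 1.5 for Pomc, -0.03 to 0.26 for Cartpt, -0.56 to 0.33 for Oxt and -0.03 to 0.44 for Hcrt. In P195A/- against P195A/P195A they were -0.01 to 0.40 for Cartpt and -0.01 to 1.17 for Oxt. For mice without against mice with a wild-type allele they were -1.42 to 1.29 for Pomc, -0.41 to 0.05 for Oxt, -0.02 to 0.25 for Npy and -0.17 to 0.21 for Avp. For weight they were -0.02 to 0.13 for Cartpt, -0.24 to 0.14 for Oxt, -0.15 to 0.10 for Npy and -0.21 to 0.02 for Avp. For males against females they were -0.22 to 0.05 for Trh, -1.45 to 1.23 for Pomc, -0.21 to 0.17 for Cartpt, -0.98 to 0.11 for Oxt, -0.55 to 0.32 for Avp and -0.38 to 0.03 for Crh.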
